A study of Mus musculus with 8 samples.

Results

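Tubulin messages were followed through mitotic arrest and release in mouse pluripotent stem cells, as 9 tubulin genes and the gene of their decay adaptor, Ttc5, in the poly(A) RNA of 8 libraries. The 10 genes were chosen by name, 4 encoding alpha-tubulins (Tuba1a, Tuba1b, Tuba1c and Tuba4a), 5 encoding beta-tubulins (Tubb2a, Tubb2b, Tubb4b, Tubb5 and Tubb6) and Ttc5, and each matched 1 row of the 54838 Ensembl genes in the count table. All 10 passed the filter on low counts. The cells were induced pluripotent stem cells of 2 male clones, which the labels call ESC, kept on irradiated feeder cells in serum, LIF and inhibitors of MEK and GSK3. Asynchronous cells were a cycling culture. Mitotic cells were replated on gelatin, held in nocodazole at 200 ng/ml for 6 h and shaken off. Early G1 (EG1) and late G1 (LG1) cells were washed free of the drug after the same arrest, replated on gelatin and taken at 1 h and 3 h. Each state had n = 2 libraries, which the labels describe as biological replicates from the 2 clones without tying a clone to a library. No group had mitosis without nocodazole or nocodazole without mitosis, so the drug, the arrest and the handling cannot be told apart.

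Microtubules are built from dimers of alpha- and beta-tubulin, and most mammalian cells make several isotypes of each from separate genes. Nocodazole binds beta-tubulin and depolymerises microtubules, which raises the pool of free dimers. Cells are known to lower their tubulin messages when free dimers accumulate, a feedback called tubulin autoregulation: TTC5 binds the nascent chain of tubulin as it leaves the ribosome, SCAPER joins it, and the CCR4-NOT deadenylase shortens the poly(A) tail of the message being translated. TTC5 recognises the opening residues of the chain, which are methionine, arginine, glutamate and isoleucine in beta-tubulins and methionine, arginine, glutamate and cysteine in alpha-tubulins.

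The coding starts of the listed genes are shown because they encode this recognised segment. They are spliced sequences of the GENCODE M21 annotation on GRCm38, 5′ to 3′, with the codons of the segment in capitals and none in capitals for Ttc5, whose protein is the reader and not the target.
Tuba1a: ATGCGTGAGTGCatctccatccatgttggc
Tuba1b: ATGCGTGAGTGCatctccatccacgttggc
Tuba1c: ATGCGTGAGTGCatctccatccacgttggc
Tuba4a: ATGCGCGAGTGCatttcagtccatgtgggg
Tubb2a: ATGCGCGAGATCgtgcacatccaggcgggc
Tubb2b: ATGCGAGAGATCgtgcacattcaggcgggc
Tubb4b: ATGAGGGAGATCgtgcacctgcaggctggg
Tubb5: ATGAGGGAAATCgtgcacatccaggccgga
Ttc5: atgatggctgatgaagaggaagaagcgaag
Tubb6 has a start of the beta class too. All 9 listed tubulins thus carry codons for the recognised residues. Counted from 1 at the first coding base, Tubb4b differs from Tubb5 in these 12 bases by A9G alone, Tubb2a by A4C, G6C and A9G, and Tubb2b by A4C, G6A and A9G. Tuba1a and Tuba1c are identical there to Tuba1b, and Tuba4a differs by T6C. Read by the residues coded at the annotated start, the beta class was found in 8 of 21632 protein-coding genes (0.037%), all of them beta-tubulin genes. The alpha class was found in 9 (0.0416%), of which 8 are alpha-tubulin genes and 1 is Gm49450, a model that spans Tuba1a and Tuba1b. In the alpha-tubulin genes an intron follows directly on the start codon, so the first coding exon holds 3 coding bases, while in the beta-tubulin genes it holds 57.

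Tuba1a (ENSMUSG00000072235, chromosome 15, 98949837 to 98953703, minus strand), Tuba1b (ENSMUSG00000023004, 98931425 to 98934565, minus strand) and Tuba1c (ENSMUSG00000043091, 99029891 to 99038110, plus strand) lie near each other on chromosome 15, and Tubb2a and Tubb2b are neighbours on chromosome 13. Such copies share sequence, and reads of 50 bases cannot always be placed. Of the distinct 50-base stretches in the annotated transcripts, 75.5% of those of Tuba1a, 75.1% of Tuba1b, 52.7% of Tuba1c, 49.6% of Tubb2a, 41.3% of Tubb4b, 36.9% of Tubb2b, 35.4% of Tuba4a and 8.86% of Ttc5 also occur in transcripts of another gene, against 0.0892% of Tubb5 and 0 of the 2388 stretches of Tubb6. The coding sequences of Tuba1a, Tuba1b and Tuba1c are 97.1% to 98.3% identical, and those of Tubb2a and Tubb2b are 96.5% identical. A stretch counted as shared if it or its reverse complement occurred there. Most of the shared part of Tuba4a is with Stk16, a kinase gene on the opposite strand that covers 37.3% of its exonic bases. That part is an overlap at the same locus and not a copy elsewhere, so its reads can be placed. The gene they are counted for depends on how strand was handled. Gm49450, listed at 0 counts in every library, covers 26.2% of the exonic bases of Tuba1a and 22.7% of those of Tuba1b on the same strand. How the authors counted such reads is not given in the sources used here, so levels of the Tuba1 genes, Tuba4a, Tubb2a, Tubb2b and Tubb4b are uncertain, while those of Tubb5 and Tubb6 rest almost wholly on sequence of their own.

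Total counts lay between 20410621 and 25615244 per library. A list of 10 stem cell markers summed to between 5474 and 7073 CPM (each count as a share of its library, corrected by TMM factors), with none at 0. Of these, 5 were called higher and 1 lower in mitotic against asynchronous cells, where 18.3% of all genes were higher and 22.4% lower. In late G1 against asynchronous cells 5 were higher and 1 lower too, where 22.7% and 26% were. Their median log2 fold changes were 0.457 and 0.217. Replicates of the asynchronous group were the least alike, with a biological coefficient of variation of 0.292, against 0.183 for the mitotic pair, 0.0506 for early G1 and 0.0417 for late G1. All 9 listed tubulins were higher in asynchronous replicate 2 than in replicate 1, by 1.20-fold (Tubb5) to 1.90-fold (Tuba1b). RNA of feeder cells moved with the same group: 20 fibroblast markers, none at 0 in any group, summed to 3149 to 4108 CPM in asynchronous cells, 882 to 1212 CPM in mitotic cells and 978 to 1296 CPM in G1. Of the 19 tested, 17 were called lower and 0 higher in mitotic cells, where 22.4% of all genes were lower. In late G1 against asynchronous cells 18 were lower and 1 higher, where 26% of all genes were lower. The median log2 fold changes of the 19 were -4.31 and -4.61, so the sums understate the fall of most markers. Col1a1, a chain of type I collagen, stood at 532 ± 32.0 CPM in asynchronous and 8.87 ± 1.81 CPM in mitotic cells (mean ± SD, n = 2, as in all such values). A list of 12 macrophage markers summed to 83.8 to 84.4 CPM, 97.2 to 113 CPM and 41.6 to 49.2 CPM in asynchronous, mitotic and G1 cells, with Lyz2 at 0 in late G1. From mitotic cells to early G1, 5 of the 19 feeder markers were called higher and 0 lower, with a median log2 fold change of 0.5. Of 10 macrophage markers tested, 8 were called lower and 0 higher in that step, with a median of -4.32. Over all genes 3.21% were higher and 1.42% lower there. The macrophage sums thus understate the fall of most of these markers. At the arrest, against asynchronous cells, 4 of these 10 had a call upward and 0 downward (median 1.04), where 18.3% of all genes rose and 22.4% fell. The part of feeder and macrophage RNA in the tubulin results was not tested. In bulk samples fewer cells of a type and less message per cell cannot be told apart, and with no spike-in a level is a share of the poly(A) RNA.

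Among the 9 listed tubulins, the main beta-tubulin message and a pair of alpha-tubulin messages were several-fold lower at the arrest than in cycling cells. Tubb2b was 1.57-fold lower, and the other 5 were not called. A gene was called at an adjusted p under 0.05 (edgeR quasi-likelihood test, Benjamini-Hochberg over 19101 genes). Of the 10 genes, 4 were lower in mitotic cells (Tubb5, Tuba1c, Tuba1b and Tubb2b), 0 were higher and 6 were not called, with a median log2 fold change of -0.27 against -0.049 for all genes tested. Over all genes 40.7% were called, 22.4% lower and 18.3% higher. In the fit of all 8 libraries the 10 were thus called about as often as genes in general, though all 4 calls were lower. In a fit of mitotic and asynchronous cells only, 1560 genes were higher and 2323 lower of 18245. The share called over all genes thus depended on which libraries set the spread. Neither Ttc5 nor the most abundant other isotype, Tubb4b, was among the 4. At an unadjusted p under 0.05, 1 of the 10 was higher (Tuba1a) and 4 lower, where 4354 of 19101 genes were higher and 5180 lower. DESeq2 called 0 of the 10 higher and 4 lower, where it called 3486 genes higher and 3673 lower of 20853.

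Tubb5 (ENSMUSG00000001525, chromosome 17, 35833921 to 35838306), which encodes the class I beta-tubulin found in most cells, measured 3359 and 4044 CPM in cycling cells and 535 and 539 CPM at the arrest. It stood at 1476 and 1424 CPM in early G1 and at 1048 and 1047 CPM in late G1. The states did not overlap, and the 2 libraries of each synchronised state differed at most 1.04-fold. Tubb5 fell 6.89-fold in mitotic cells (log2 -2.79, SE 0.13, edgeR adjusted p = 1.97e-05), and this call held under all 17 alternatives (log2 from -2.91 to -2.65).

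Tuba1c, an alpha-tubulin gene of dividing cells, stood at 118 and 209 CPM in cycling cells, 28.9 and 31.3 CPM at the arrest, 76.9 and 78.8 CPM in early G1 and 52.8 and 43.3 CPM in late G1. It was lowest in both mitotic libraries, and no pair of states overlapped. It fell 5.42-fold in mitotic cells (log2 -2.44, SE 0.26, edgeR adjusted p = 3.74e-04). Tuba1b, another broadly expressed alpha-tubulin gene, stood at 286 and 542 CPM in asynchronous, 135 and 119 CPM in mitotic, 205 and 171 CPM in early G1 and 142 and 153 CPM in late G1 cells. Both asynchronous libraries were above all others, although they differed 1.90-fold between themselves. Tuba1b fell 3.26-fold in mitotic cells (log2 -1.71, SE 0.27, edgeR adjusted p = 0.00206). Both calls held under all 17 alternatives, the log2 change of Tuba1b being -1.17 without asynchronous replicate 2 and -2.19 with replicate 1 of the asynchronous and mitotic groups left out.

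Tubb2b, a beta-tubulin gene best known from neurons, stood at 220.5 and 351 CPM in asynchronous, 159 and 206 CPM in mitotic, 148 and 137 CPM in early G1 and 129 and 141 CPM in late G1 cells. Both mitotic libraries lay below the lower asynchronous one, replicate 2 by less than replicate 1. It fell 1.57-fold in mitotic cells (log2 -0.65, SE 0.22, edgeR adjusted p = 0.0448). The call was lost without any 1 of asynchronous replicate 2 and the 6 libraries of the other states (adjusted p from 0.0646 to 0.246), with RLE scaling and in a fit without the other states.

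The isotypes that were not called differed in level as well as in direction. Tubb4b, the class IVb beta-tubulin gene (ENSMUSG00000036752, chromosome 2, 25222160 to 25224702), stood at 469.9 and 723 CPM in asynchronous and 536 and 545 CPM in mitotic cells. Its mitotic libraries lay between the asynchronous ones (log2 -0.14, SE 0.18, edgeR adjusted p = 0.562). Tubb6, which encodes the class V isotype, stood at 146 and 197 CPM against 171 and 184 CPM, so that its groups overlapped too (log2 0.050, SE 0.15). Tubb2a stood at 54.3 and 97.0 CPM against 59.6 and 66.1 CPM (log2 -0.27, SE 0.24), and Tuba4a at 94.0 and 127 CPM against 143 and 110 CPM (log2 0.19, SE 0.18). The direction of these 4 genes depended on 1 asynchronous library: without replicate 2 the log2 changes of Tubb4b and Tubb2a were 0.20 and 0.21, and without replicate 1 those of Tubb6 and Tuba4a were -0.15 and -0.0050. Without asynchronous replicate 1, Tubb4b and Tubb2a were called lower (log2 -0.41 and -0.62, edgeR adjusted p = 0.00267 and 0.00177), and without replicate 2 Tuba4a, Tubb6 and Tuba1a were called higher (adjusted p = 0.0311, 0.0395 and 0.00600). Tuba1a, whose product is best known from the developing brain, stood at 152 and 188 CPM in asynchronous and 220 and 212 CPM in mitotic cells, the highest of the 4 states (log2 0.34, SE 0.14, edgeR adjusted p = 0.0898).

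**Figure D1:**
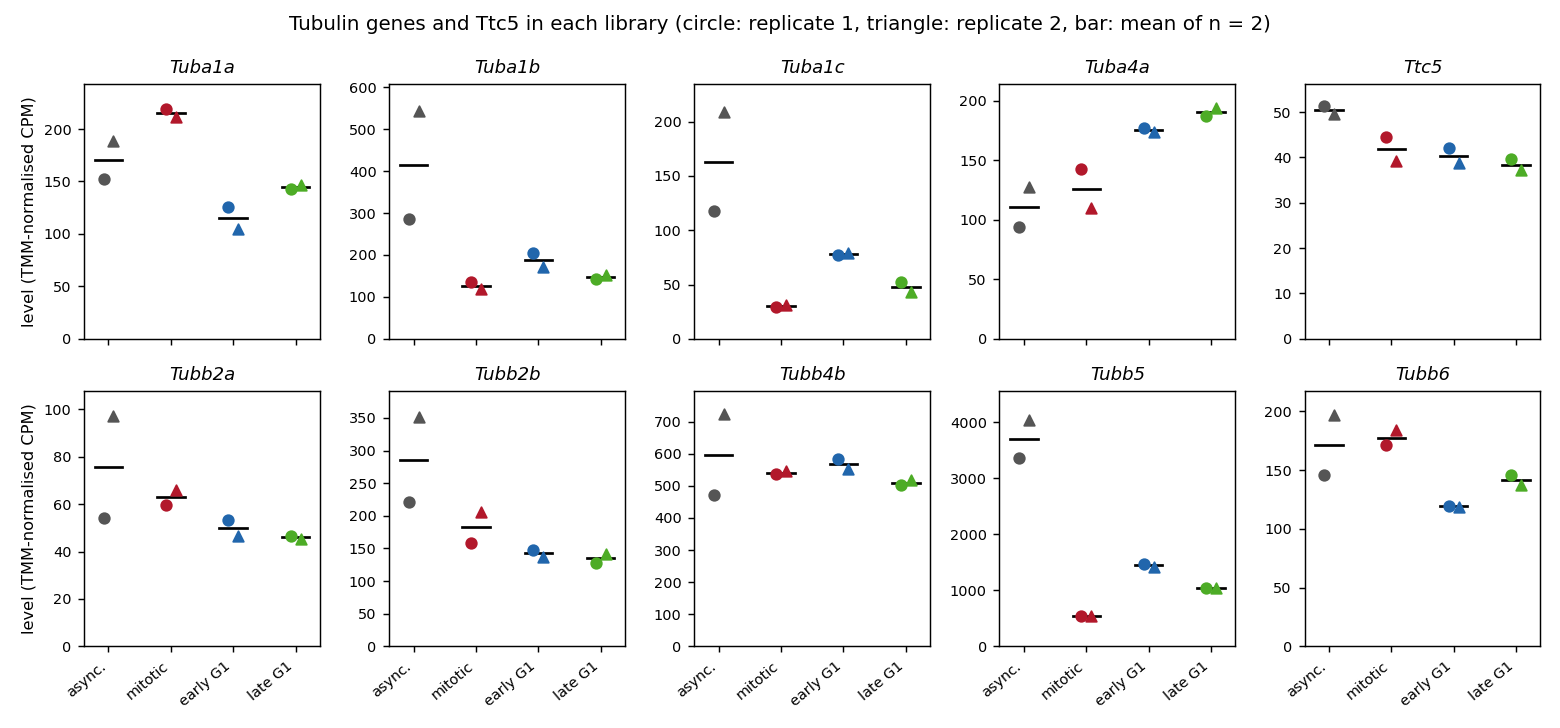
Level of each listed gene (TMM-normalised CPM, linear axis from 0) in every library, by state, with circles for replicate 1, triangles for replicate 2 and bars for the mean of n = 2. Tubb5, Tuba1b and Tuba1c are highest in both asynchronous libraries and lowest in both mitotic ones, Tuba1a is highest in the mitotic ones, and the asynchronous replicates lie apart for most tubulins.

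The isotypes thus stood in a different proportion at the arrest. The ratio of Tubb5 to Tubb4b counts was 7.15 and 5.59 in cycling cells against 0.999 and 0.989 at the arrest, and the ratio of Tuba1c to Tuba1a was 0.774 and 1.11 against 0.132 and 0.148. In neither ratio did the states overlap. An exact permutation test of 2 libraries against 2 cannot give a p below 0.333, so these ratios are given without a test. Per kilobase of exon, Tubb5 made up 68.2% ± 3.81 of the 5 listed beta-tubulins in cycling cells, 26.4% ± 0.932 at the arrest, and 51.3% ± 0.366 and 44.7% ± 0.440 at 1 h and 3 h. Tubb4b made up 17.2% ± 2.02, 42.3% ± 1.22, 32.0% ± 0.137 and 34.6% ± 0.494 in the same order. The summed level of the 5 beta-tubulins was 4249 and 5412 CPM in asynchronous and 1460 and 1539 CPM in mitotic cells. Without Tubb5 the other 4 summed to 890 and 1368 CPM against 925 and 1000 CPM, so that the groups overlapped.

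**Figure D2:**
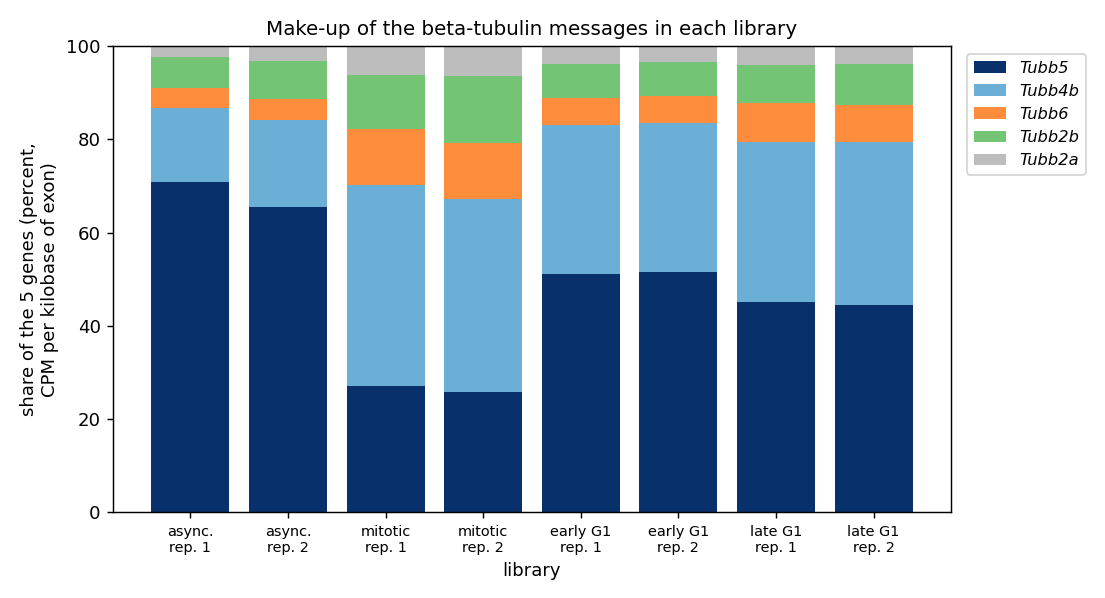
Share of each of the 5 listed beta-tubulin genes in their summed level (percent, CPM per kilobase of exon), 1 stacked bar per library. Tubb5 holds 65.5% to 70.9% in asynchronous libraries and 25.8% to 27.1% in mitotic ones, where Tubb4b holds 41.5% to 43.2%.

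Per kilobase of exon, Tubb5 led in asynchronous cells (1113 ± 146 CPM per kilobase), ahead of Tubb4b (286 ± 85.7) with no overlap, and the next genes down to Tuba4a (29.9 ± 6.35) overlapped each with its neighbour. Ttc5 was lowest (12.4 ± 0.334). In mitotic cells the order was Tubb4b (259 ± 3.05), Tubb5 (161 ± 0.836) and Tuba1a (120 ± 3.02), none overlapping its neighbour, followed by Tubb2b, Tubb6 and Tuba1b (79.5 ± 14.3, 72.8 ± 3.71 and 67.7 ± 6.10), which overlapped. Tuba1c (13.2 ± 0.726) stood just above Ttc5 (10.3 ± 0.915). In early and late G1 Tubb5 was again first (436 ± 10.9 and 315 ± 0.231) and Tubb4b second (272 ± 9.90 and 244 ± 5.70). These levels per length carry the limits on shared sequence given for the Tuba1 genes, Tuba4a, Tubb2a, Tubb2b and Tubb4b, the last being first in the mitotic order.

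An hour after the drug was washed out, Tubb5 and Tuba1c, the genes with the largest falls at the arrest among the 10, were higher than at the arrest and Tuba1a was lower. The comparisons with mitotic cells at 1 h and 3 h share their mitotic libraries with that of the arrest. A change at the arrest and its return are therefore not independent. Of the 10 genes, 2 were called higher in early G1 than in mitotic cells (Tubb5 and Tuba1c), 1 lower (Tuba1a) and 7 not, with a median log2 fold change of 0.012 against -0.011 for all genes. Over all 19101 genes 4.63% were called, 3.21% higher and 1.42% lower. Tubb5 rose 2.70-fold (1450.1 ± 36.2 against 537 ± 2.78 CPM, log2 1.43, SE 0.12, edgeR adjusted p = 0.00204), to 39.2% of its asynchronous mean, and was called under all 17 alternatives. Tuba1c rose 2.59-fold (77.8 ± 1.36 against 30.1 ± 1.66 CPM, log2 1.37, SE 0.25, edgeR adjusted p = 0.0247), to 47.7% of its asynchronous mean. Tuba1a went the other way, 1.87-fold lower at 126 and 105 CPM (log2 -0.90, SE 0.15, edgeR adjusted p = 0.0164). The calls of Tuba1c and Tuba1a were each lost when any 1 of the 6 mitotic, early G1 or late G1 libraries was left out (adjusted p from 0.0625 to 0.169 and from 0.0573 to 0.207).

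The 7 that were not called included Tuba1b, at 205 and 171 CPM against 135 and 119 CPM (log2 0.57, SE 0.26, edgeR adjusted p = 0.243), and Tuba4a, at 177 and 174 CPM against 143 and 110 CPM (log2 0.47, SE 0.18, adjusted p = 0.161). Both early G1 libraries of each gene were above both mitotic ones, and leaving out either asynchronous library brought both genes past the threshold, as did a fit without the other states (adjusted p = 0.0195 and 0.0390). Tubb6 stood at 119.9 and 119 CPM against 171 and 184 CPM (log2 -0.57, SE 0.15, edgeR adjusted p = 0.0743), and was called lower by DESeq2 (adjusted p = 0.0319). Tubb2a and Tubb2b had log2 changes of -0.33 and -0.36, and Tubb4b 0.073. By the sign of the log2 change, Tuba1b, Tuba1c and Tuba4a thus lay above their mitotic level and Tuba1a below. Among the beta-tubulins, Tubb5 and, by a small margin, Tubb4b lay above, and Tubb2a, Tubb2b and Tubb6 below. Only Tubb5, Tuba1c and Tuba1a of these were called, so the signs of the rest are a description.

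Between 1 h and 3 h no gene was called in the fit of all 8 libraries, 0 of 19101 (0%), so that none of the 10 was called either. At an unadjusted p under 0.05, 297 genes were higher and 427 lower in late G1 (3.79% of all), among them Tubb5 and Tuba1c, both lower. DESeq2 called 6 higher and 20 lower over all genes and 0 of the 10. Tubb5 stood at 1048 and 1047 CPM in late G1 against 1476 and 1424 CPM in early G1, a log2 difference of -0.47 (SE 0.12, edgeR unadjusted p = 0.00418, adjusted p = 1). Tuba1c stood at 52.8 and 43.3 CPM against 76.9 and 78.8 CPM, a log2 difference of -0.70 (SE 0.24, unadjusted p = 0.0205), and Tuba1a at 143 and 146 CPM against 126 and 105 CPM (log2 0.33, SE 0.14, unadjusted p = 0.0514). In each of the 3 genes both late G1 libraries lay between the early G1 and the mitotic ones.

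This step depended on which libraries set the spread. In the fit of early and late G1 alone, whose replicates were close, 4 of the 10 were called lower in late G1 (Tubb5, Tuba1c, Tuba1b and Tubb4b) and 2 higher (Tuba1a and Tubb6), where that fit called 619 genes higher and 874 lower of 17696. There Tubb5 and Tuba1c had edgeR adjusted p = 1.70e-08 and 9.18e-08, and Tuba1a 0.00136. Leaving out asynchronous replicate 1 or replicate 2 called Tubb5 alone of the 10 (adjusted p = 0.0363 and 0.0291).

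At 3 h, Tubb5 was 1.95-fold above its mitotic level (1047 ± 0.768 against 537 ± 2.78 CPM, log2 0.96, SE 0.12, edgeR adjusted p = 0.00486) and Tuba1a 1.49-fold below it (145 ± 2.17 against 216 ± 5.45 CPM, log2 -0.58, SE 0.14, adjusted p = 0.0444). The other 8 were not called, and the median log2 fold change of the 10 was -0.10 against -0.014 for all genes, of which 9.48% were called, 5.43% higher and 4.04% lower. The Tubb5 call was lost without mitotic replicate 1 or either late G1 library (adjusted p from 0.0591 to 0.0702), and that of Tuba1a with the replicate block or without any 1 of the 6 libraries of the synchronised states (adjusted p from 0.0872 to 0.268). Tuba4a stood at 187 and 193 CPM against 143 and 110 CPM, above both mitotic libraries but not called (log2 0.59, SE 0.18, edgeR adjusted p = 0.0727).

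Late G1 cells still differed from cycling cells in most of these messages. Of the 10 genes 6 were lower (Tubb5, Tuba1c, Tuba1b, Tubb2b, Tubb2a and Ttc5), 1 was higher (Tuba4a) and 3 were not called, with a median log2 fold change of -0.56 against -0.029 for all genes, and over all genes 48.7% were called, 26% lower and 22.7% higher. This comparison shares its asynchronous libraries with that of mitotic cells, and its feeder RNA differed likewise. Tubb5 was 3.53-fold lower (log2 -1.82, SE 0.12, edgeR adjusted p = 6.66e-05), at 28.3% of its asynchronous mean, Tuba1c 3.39-fold and Tuba1b 2.81-fold. Tubb2b was 2.12-fold lower (log2 -1.08, SE 0.22, adjusted p = 0.00495). Tuba4a, whose transcript overlaps Stk16, was 1.72-fold higher (190.1 ± 4.78 against 111 ± 23.5 CPM, log2 0.78, SE 0.18, adjusted p = 0.00774). These 5 calls held under all 17 alternatives. Tubb2a, at 46.6 and 45.3 CPM against 54.3 and 97.0 CPM, was 1.65-fold lower (edgeR adjusted p = 0.0383) and lost its call without asynchronous replicate 2 (log2 -0.24, adjusted p = 0.124), in a fit of late G1 and asynchronous cells only, or without any 1 of the 6 libraries of the synchronised states.

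**Figure D3:**
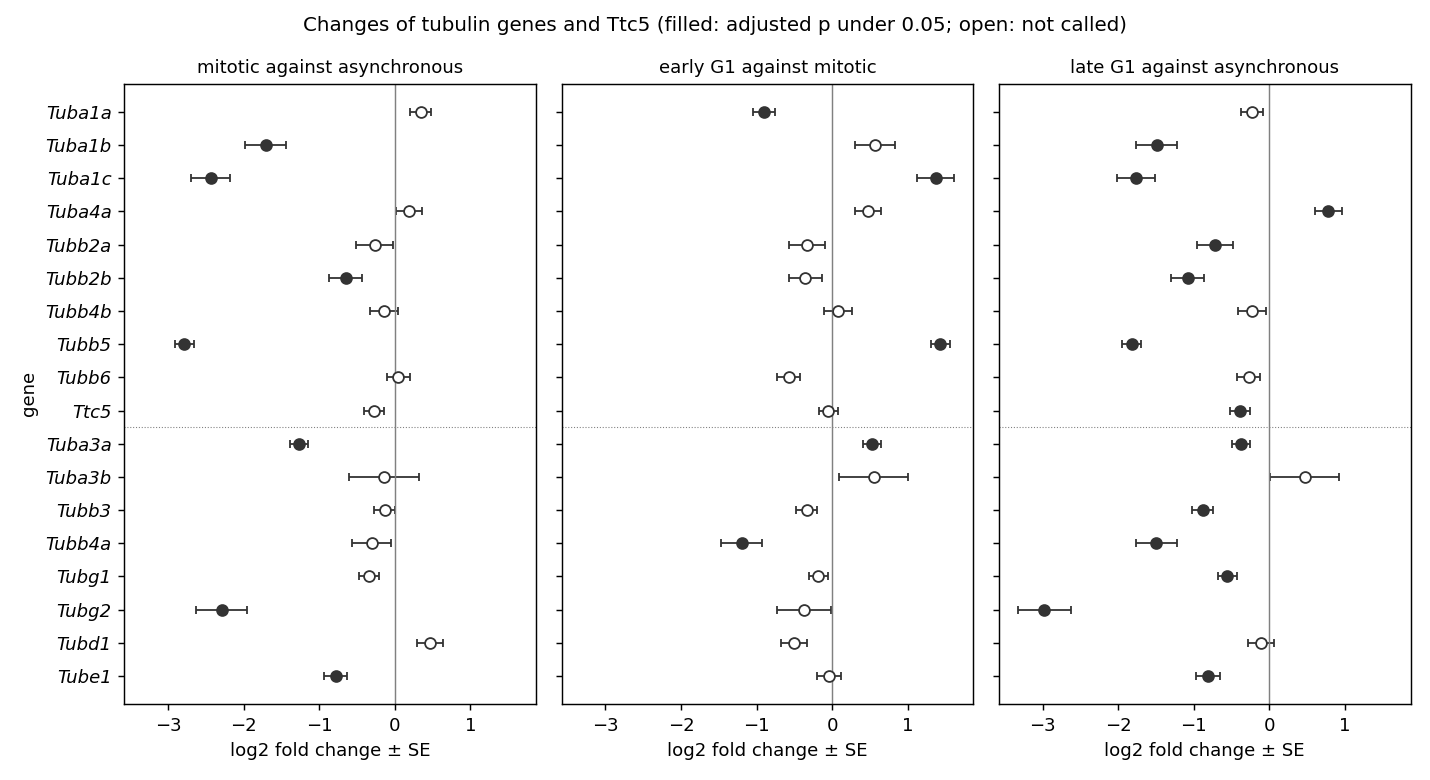
Log2 fold change ± SE of the 10 listed genes (above the dotted line) and 8 other tubulin genes (Tuba3a to Tube1) in 3 comparisons of n = 2 against n = 2 libraries, with filled points for an adjusted p under 0.05. Tubb5 lies at -2.79, 1.43 and -1.82, and Tubb4b within 0.23 of 0 in each.

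Ttc5, a tetratricopeptide repeat protein gene (ENSMUSG00000006288, chromosome 14, 50765415 to 50785519), varied little. It stood at 51.4 and 49.5 CPM in asynchronous, 44.4 and 39.2 CPM in mitotic, 42.1 and 38.7 CPM in early G1 and 39.6 and 37.2 CPM in late G1 cells. Both asynchronous libraries were above the other 6. It was not called in mitotic against asynchronous cells (log2 -0.27, SE 0.13, edgeR adjusted p = 0.130) or after release, and was 1.31-fold lower in late G1 than in asynchronous cells (log2 -0.39, SE 0.13, adjusted p = 0.0369). That call was lost by DESeq2 (adjusted p = 0.0684), without the filter on low counts, in a fit of late G1 and asynchronous cells only, and without any 1 of the 4 G1 libraries (adjusted p from 0.0875 to 0.222).

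The partners of Ttc5 in the decay pathway were taken from a list of Scaper and 11 genes of the CCR4-NOT complex, all tested. In mitotic against asynchronous cells 5 were higher and 2 lower, where 18.3% of all genes were higher and 22.4% lower, and the median log2 fold change was 0.22 against -0.049 for all genes. After release edgeR and DESeq2 called 0 of the 12 in early or late G1 against mitotic cells. Over all genes edgeR called 4.63% and 9.48% in these comparisons. At an unadjusted p under 0.05, 0 differed at 1 h, where 22.6% of all genes did. At 3 h 2 were lower and 0 higher, where 2409 of 19101 genes were lower and 2669 higher. Scaper, which links TTC5 to the deadenylase, stood at 36.1 and 28.8 CPM in asynchronous, 20.7 and 20.9 CPM in mitotic, 18.5 and 18.8 CPM in early G1 and 14.8 and 14.1 CPM in late G1 cells. It fell 1.56-fold in mitotic cells (log2 -0.64, SE 0.15, edgeR adjusted p = 0.0119) and was 2.25-fold below asynchronous cells in late G1 (adjusted p = 7.73e-04). Cnot11, the subunit that SCAPER contacts, rose 1.55-fold in mitotic cells (90.0 ± 10.5 against 57.9 ± 8.68 CPM, adjusted p = 0.0102). Cnot3, a regulatory subunit gene, and Cnot4, a ubiquitin ligase gene, rose 1.75- and 1.71-fold, and Cnot6, a catalytic deadenylase subunit, 1.58-fold. Cnot9 rose by a log2 of 0.58, and Cnot8, another catalytic deadenylase subunit, fell 1.44-fold (86.8 ± 4.43 against 125 ± 21.1 CPM, adjusted p = 0.0179). Cnot6l, a catalytic subunit as well, stood at 18.9 ± 3.54 against 29.3 ± 9.36 CPM and was not called (adjusted p = 0.0571). The mitotic calls of Scaper (adjusted p = 0.0625 and 0.0557) and Cnot6 (0.202 and 0.0629) were lost without mitotic replicate 1 or 2, that of Cnot6 also without any 1 G1 library (0.0686 to 0.0730) and on total counts (0.0726), and that of Cnot11 without mitotic replicate 2 (0.0603). That of Cnot8 was lost without mitotic replicate 1 or 2 (0.0631 and 0.0979). In a fit of these states only, Scaper, Cnot6, Cnot8, Cnot9 and Cnot11 lost their calls too (0.103, 0.109, 0.129, 0.0589 and 0.0681).

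Of 11 other tubulin genes on the list 9 were tested, and in mitotic against asynchronous cells 0 were higher and 3 lower (Tuba3a, Tube1 and Tubg2), where 18.3% of all genes were higher and 22.4% lower. Tuba3a, an alpha-tubulin gene best known from testis, stood at 90.1 and 89.1 CPM in asynchronous, 36.5 and 37.8 CPM in mitotic, 56.2 and 50.9 CPM in early G1 and 66.5 and 71.5 CPM in late G1 cells. It fell 2.41-fold at the arrest (log2 -1.27, SE 0.12, edgeR adjusted p = 2.53e-04), rose 1.44-fold by 1 h (adjusted p = 0.0488) and was 1.30-fold below asynchronous cells at 3 h (adjusted p = 0.0300). The call at 1 h was lost under 9 of 17 alternatives, among them the omission of any 1 of the 6 synchronised libraries (adjusted p from 0.139 to 0.333), and that at 3 h under 7, among them the omission of any 1 G1 library (0.0747 to 0.222). In this gene 35.3% of its 50-base stretches occur in other genes, mostly Tuba3b.

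Tubb3, the class III beta-tubulin gene used as a neuronal marker, stood at 61.9 and 59.7 CPM in asynchronous and 59.7 and 51.2 CPM in mitotic cells, then at 47.2 and 40.7 CPM and at 33.7 and 32.1 CPM in early and late G1. It was not called at the arrest (log2 -0.13, SE 0.14, edgeR adjusted p = 0.466) and was 1.85-fold below asynchronous cells in late G1 (adjusted p = 0.00162). Tubb4a, at under 5 CPM in every library, fell 2.29-fold from mitotic cells to early G1 (adjusted p = 0.0474), a call lost under 8 of 17 alternatives, among them the omission of any 1 of the 6 synchronised libraries (adjusted p from 0.0864 to 0.298). Tuba8 averaged 0.663 and 0.298 CPM in asynchronous and mitotic cells. Tubb1, a platelet isotype, and Tubal3 had at most 6 and 2 counts in any library and were not tested.

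The gamma-, delta- and epsilon-tubulin genes, whose products act at centrosomes and centrioles and whose coding starts are not of the recognised classes, are the rest of the superfamily. Of the 4, edgeR called 2 lower and 0 higher at the arrest, and of 14 alpha- and beta-tubulin genes tested 5 lower and 0 higher, where 22.4% of all genes were lower. The difference between the families was not tested. Tubg2 fell 4.90-fold (1.34 ± 0.550 against 6.58 ± 1.06 CPM, edgeR adjusted p = 0.00146) and Tube1 1.72-fold (15.5 ± 0.236 against 26.8 ± 4.06 CPM, adjusted p = 0.00536, and 0.0647 in a fit of these states only). Tubg1, the main gamma-tubulin gene, stood at 85.2 and 102 CPM against 71.7 and 76.3 CPM and was not called (adjusted p = 0.0682). Tubd1 stood at 11.2 ± 1.17 against 8.09 ± 0.548 CPM (adjusted p = 0.0624). In the first hour after release 0 of the 4 were called (log2 of Tubg2 -0.37 and of Tube1 -0.043), and 3 of the 14 were higher and 2 lower, where 4.63% of all genes were called.

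Of 22 tested genes that fold tubulin, 4 rose, 3 fell and 15 were not called in mitotic against asynchronous cells, with a median log2 fold change of 0.099 against -0.049 for all genes. The share called in this list, and in each of the next 3, was below the 40.7% called over all genes. Arl2, the small GTPase of the tubulin cofactor complex, fell 2.53-fold (34.4 ± 2.00 against 87.0 ± 26.2 CPM, edgeR adjusted p = 0.00169). Pdcl3, a chaperonin cofactor, rose 1.94-fold (90.5 ± 2.88 against 46.7 ± 6.69 CPM) and Cct6a, a chaperonin subunit, 1.60-fold. Of 18 tubulin modifying enzymes 5 rose and 0 fell. Ttl, the ligase that puts tyrosine back on alpha-tubulin, rose 1.84-fold (52.7 ± 1.26 against 28.6 ± 2.00 CPM, adjusted p = 0.00125), Ttll4, a glutamylase, 1.65-fold, and Vash1, a tyrosine carboxypeptidase, 2.20-fold at low level (3.65 ± 0.696 against 1.64 ± 0.668 CPM). The call of Cct6a was lost without asynchronous replicate 1, mitotic replicate 2 or late G1 replicate 2 (adjusted p from 0.0507 to 0.166), that of Ttll4 without mitotic replicate 1 (0.156), and that of Vash1 without asynchronous replicate 2 or mitotic replicate 2 (0.0673 and 0.123). In a fit of mitotic and asynchronous cells only, the 3 lost their calls as well (0.0910, 0.0764 and 0.0839). In the first hour edgeR and DESeq2 called 0 genes of either list, where edgeR called 4.63% of all genes. At an unadjusted p under 0.05 2 folding genes were lower, and 1 modifying enzyme was higher and 2 lower. Over all genes, 2417 of 19101 were higher and 1907 lower at that threshold.

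Of 19 genes of the gamma-tubulin ring and augmin, which nucleate microtubules, 1 rose (Tubgcp3, 1.84-fold) and 3 fell at the arrest (Tubg2, Haus8, at 1.69-fold, and Haus5). In the first hour edgeR called 0, where it called 4.63% of all genes. DESeq2 called 1 higher, where it called 844 genes higher and 441 lower of 18913. At an unadjusted p under 0.05, 2 were higher and 0 lower, where 2417 of 19101 genes were higher and 1907 lower. The call of Tubgcp3 was lost without either mitotic library (adjusted p = 0.107 and 0.0504) and that of Haus8 without mitotic replicate 2 (0.0979), and both in a fit of mitotic and asynchronous cells only (0.0691 and 0.0784). Haus5 lost its call under 9 of 17 alternatives, among them DESeq2 (0.0542) and the omission of asynchronous replicate 2, mitotic replicate 1 or any 1 G1 library (0.0693 to 0.164). Of 27 regulators of microtubule dynamics 6 rose and 2 fell at the arrest. In early G1 against mitotic cells 0 rose and 3 fell, where 3.21% of all genes rose and 1.42% fell. Mapre1, which encodes the plus-end protein EB1, rose 1.79-fold (232 ± 1.31 against 130 ± 0.298 CPM, edgeR adjusted p = 7.79e-04), while its relative Mapre3 fell 2.88-fold (3.19 ± 0.929 against 9.19 ± 3.20 CPM). The katanin-like gene Katnal1 fell 3.21-fold at low level (1.75 ± 0.151 against 5.63 ± 0.715 CPM). Without mitotic replicate 1 Mapre3 was not called (adjusted p = 0.0559). Clip2, Map7d1 and Kif2c, the last a microtubule depolymerase of mitosis, fell 1.81-, 1.51- and 1.45-fold in the first hour (adjusted p = 0.0492, 0.0393 and 0.0488), each call being lost without any 1 of the 6 synchronised libraries (adjusted p from 0.0914 to 0.360) and with the replicate block (0.0535, 0.0522 and 0.0535), and those of Clip2 and Kif2c on total counts (0.0592 and 0.0734).

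Other genes followed patterns close to those of the leading isotypes over the 8 libraries. Among 7849 genes compared, the 3 most like Tubb5 in log2 CPM were Nlrp12 (Pearson r = 0.993), Ppm1j (0.992) and Jpt1 (0.992). Jpt1 stood at 166, 35.2, 77.8 and 56.8 CPM on average in asynchronous, mitotic, early G1 and late G1 cells, and Nlrp12 at 57.0, 9.39, 24.9 and 19.6 CPM. The 3 most like Tuba1b were Vmac (0.981), Iqcg (0.980) and Fdps (0.975), with Vmac at 39.9, 16.4, 20.6 and 17.8 CPM. The 8 libraries share 4 states, so these correlations are a description.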

How the data were processed

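Per the labels' protocols, poly(A) RNA was sequenced as stranded single reads of 50 bases. TopHat2, SAMtools, HTSeq and mm10 are named, without versions or settings, per the submitters' processing notes. The authors deposited raw read counts per gene. Symbols, lengths and coordinates (1-based) came from GENCODE M21 on GRCm38, which matched 54809 IDs (99.9%). In R 4.3.3 with edgeR 4.0.16, filterByExpr (minimum count 10) left 19101 genes, and the robust quasi-likelihood test was fitted to all 8 libraries with TMM scaling and 4 residual degrees of freedom. Every test was two-sided. An SE is the absolute log2 fold change over the square root of F. The test was also run on simulated counts. These gave all groups the same spread for a gene, unlike the libraries here, so no conclusion is drawn from that run. Alternatives were RLE, upper quartile and no scaling, no filter, DESeq2 1.42.0, the 2 groups alone, a replicate block, each library left out, and 2 added after the data had been seen (a term for, or leaving out, replicate 1 of the asynchronous and mitotic groups). The genes, lists and rules were chosen with earlier results of these data known. The rule named all 10 genes, in each other list the 3 largest called changes at the arrest and in early G1, 7 further genes by name, and the 3 genes most like the leading alpha- and beta-tubulin by correlation of log2 CPM (prior count 2), among genes with a mean of at least 4, a symbol that is no clone or predicted name, and no tubulins. Genes named beyond it (Haus5, Cnot6l, Cnot8, Cnot9, Tubb4a at other times and the marker genes) were chosen after their values were seen.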

Additional observations from a re-analysis of the deposited data

How the results depend on the processing

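Of the 16 calls among the 10 genes, 9 held under all 17 alternatives. Of the 10 genes, the numbers called higher and lower in mitotic against asynchronous cells were 1 and 5 with a term for replicate 1 of the asynchronous and mitotic groups, 0 and 8 with both those libraries left out (both chosen after seeing the data), and 0 to 3 and 3 to 6 over the fits without 1 library. In early G1 against mitotic cells they were 4 and 2 without the filter, 4 and 2 with the 2 groups alone, 2 and 2 by DESeq2, 2 and 4 with the term, 4 and 4 with both left out, and 1 to 4 and 0 to 3 without 1 library. In late G1 against mitotic cells they were 2 and 1 on total counts and by DESeq2, 3 and 2 without the filter or with the 2 groups alone, 2 and 4 with the term, 4 and 4 with both left out, and 0 to 3 and 0 to 4 without 1 library. In late G1 against early G1 they were 0 and 1 without the filter, 2 and 4 with the 2 groups alone or both left out, and 0 and 0 to 1 without 1 library. In late G1 against asynchronous cells 1 was higher in each and 4 to 9 lower. The calls over all genes shifted as well. With the term, 5219 of 19101 genes were higher and 5798 lower in mitotic against asynchronous cells. In early G1 against mitotic cells 3242 and 2640 were called with the term, against 613 and 272 in the main fit. There 1540 and 822 of 34436 were called without the filter, 1704 and 1055 of 17991 with the 2 groups alone, and 844 and 441 of 18913 by DESeq2. In late G1 against mitotic cells 995 and 592 of 19101 were called on total counts and 1162 and 940 of 18913 by DESeq2. Without the filter 1886 and 1403 of 34436 were called there, with the 2 groups alone 2275 and 1684 of 17813, and with the term 3488 and 3105 of 19101. With both left out, more genes were called in every comparison than in the main fit. The counts of the 10 in that fit, and without 1 library, can therefore not be set against the shares of the main fit. The cause of these shifts was not tested.

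Signs turned where changes were small. Ttc5 in early G1 against mitotic cells was at 0.012 with the term, 0.042 with both left out, and -0.14 to 0.043 without 1 library. In mitotic against asynchronous cells, Tuba4a was at -0.21 with both left out (called lower, edgeR adjusted p = 0.0236) and -0.0050 to 0.42 without 1 library, Tubb6 at -0.095 and -0.15 to 0.28, Tubb2a at -0.62 to 0.21 and Tubb4b at -0.41 to 0.20 without 1 library. Tubb4b was at -0.096 with the term in early G1 against mitotic cells, and at -0.50 to 0.11 without 1 library in late G1 against asynchronous cells.

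Same-numbered libraries did not deviate together in all states (correlation over 8641 genes of 0.647 for asynchronous and mitotic, -0.496 for asynchronous and early G1), so the numbers are not taken as pairs. With the replicate block 0 of the 10 were lower in late G1 against mitotic cells in place of 1 (Tuba1a, edgeR adjusted p = 0.0534), and no other call of the 10 differed. In fits that leave a state with 1 library, that library is assumed to vary like the other states.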
